A study of Mus musculus with 6 samples.

Results

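Cxcl9, Cxcl10 and Cxcl11 encode the chemokines that bind the receptor CXCR3. The 3 genes were taken by symbol from a table of 23127 genes, and each symbol matched 1 row. They were followed in Lgr5-GFP high intestinal stem cells, which carry a green reporter of Lgr5, a receptor gene that marks the dividing cells at the base of the crypt. The source was small intestine of Lgr5-GFP mice of strain C57BL/6, whose age the labels do not give. In 3 libraries the cells had no treatment (untreated 5, 1 and 9, by the end numbers of the sample titles). In 3 libraries (IFNg 6, 2 and 10) they had been incubated with interferon gamma (IFNg) at 1 ng/ml for 1.5 h in a medium of EGF, Noggin and R-spondin1. The labels do not say whether the untreated cells stood in that medium, so IFNg and incubation cannot be told apart. Nor do they say whether libraries of a group came from separate mice, so p-values reflect how far these samples spread, and that spread may be technical in part. In a widely used Lgr5-GFP line the reporter is silent in part of the crypts, and the labels do not say which line was used.

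The CXCR3 ligands are small secreted proteins that draw activated T cells and natural killer cells into inflamed tissue. Their best known inducer is IFNg: its receptor signals through the Jak kinases to gamma-activated sites (GAS) in target genes and turns on Irf1, a transcription factor that acts on interferon-stimulated response elements (ISRE). Cxcl10 is also known as a target of type I interferon and NF-kB, Cxcl9 as the ligand most dependent on IFNg, and CXCL11 as the ligand that binds CXCR3 most tightly and also binds the scavenging receptor ACKR3.

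The 3 genes lie side by side on the minus strand of mm10 chromosome 5, within 44.1 kb. Cxcl9 (ENSMUSG00000029417.9) runs from 92321347 to 92328079, Cxcl10 (ENSMUSG00000034855.13) from 92346638 to 92348889 and Cxcl11 (ENSMUSG00000060183.6) from 92359544 to 92365485. GENCODE M21 gives Cxcl9 and Cxcl10 as protein-coding. It gives Cxcl11 as a polymorphic pseudogene, a gene that is intact in some strains and broken in others, and C57BL/6 is known as a strain in which it is broken. The first coding exon of Cxcl11, chr5:92363155-92363214 on the minus strand, is printed because it decides what the Cxcl11 values below can mean. The pseudogene transcript model Cxcl11-202 keeps all 60 bases, and the coding model Cxcl11-201 leaves out the 2 bases in capitals (92363177 to 92363178). Both lines are read 5′ to 3′ from GENCODE M21:

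Cxcl11-202: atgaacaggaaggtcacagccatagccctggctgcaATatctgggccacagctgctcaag

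Cxcl11-201: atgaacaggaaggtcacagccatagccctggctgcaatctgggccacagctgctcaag

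Read from the first ATG, Cxcl11-202 met a stop after 36 codons, at 92361286. Without those 2 bases the frame ran for 99 codons. The open frames of Cxcl9-201 and Cxcl10-201 held 126 and 98 codons. Values for Cxcl11 are therefore levels of an RNA that, in the reference strain, has no full-length reading frame in the unedited transcript. No allele was read from the libraries.

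The RefSeq promoter table (GRCm38.p6) matched Cxcl9 and Cxcl10, and Cxcl11 had no entry. The 250 bases before each start site are printed for these 2 genes, both of which rose after IFNg. Capitals mark matches to the ISRE core GAAANNGAA or to the NF-kB consensus, searched on both strands along with the GAS motif TTCNNNGAA. No 2 matches overlapped. The first is chr5:92328080-92328329 and the second chr5:92348890-92349139, both on the minus strand:

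Cxcl9: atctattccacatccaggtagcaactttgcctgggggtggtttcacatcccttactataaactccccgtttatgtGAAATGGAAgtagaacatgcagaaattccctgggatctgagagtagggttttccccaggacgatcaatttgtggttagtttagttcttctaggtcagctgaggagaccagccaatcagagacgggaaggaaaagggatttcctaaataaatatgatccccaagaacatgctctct

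Cxcl10: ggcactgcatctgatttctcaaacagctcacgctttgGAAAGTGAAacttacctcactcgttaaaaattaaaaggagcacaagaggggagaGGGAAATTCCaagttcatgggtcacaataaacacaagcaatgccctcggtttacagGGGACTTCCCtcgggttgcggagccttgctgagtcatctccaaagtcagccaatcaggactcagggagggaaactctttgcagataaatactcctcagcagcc

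Cxcl9 held 1 ISRE core match, at bases -175 to -167 from the start site. Cxcl10 held 1 ISRE core match at -213 to -205 and 2 NF-kB matches, at -159 to -150 and -103 to -94. Neither window held a GAS match. Of 32851 promoters in the table, 7.13% held the ISRE core in the same 250 bases, 3.90% the NF-kB consensus and 7.02% the GAS motif. These are matches of letters and were not tested as binding sites.

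Libraries held 28508762 to 40224497 reads in genes, and 1 read was worth 0.853 to 1.05 scaled counts. Values below are scaled counts, that is, reads divided by 1 size factor per library, and a count of 0 allows up to 3 reads per library. The first principal component (35.2% of the variance) set the libraries whose titles carry GFP1 (5 and 6, at -54.9 and -88.3) apart from the 4 that carry GFP3 (18.3 to 59.0). Xist was high in libraries 1 and 2 (8336 and 6147), where the Y-linked Ddx3y was near 0, and Ddx3y was at 4219 or more elsewhere, so each group held mice of both sexes and more than 1 mouse. A mean of 10 scaled counts or more was reached by 16095 genes, of which 67 were higher and 2 lower after IFNg in limma at an adjusted p below 0.05.

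All 3 ligand genes rose after IFNg. Cxcl10 rose 84.6-fold, Cxcl11 61.4-fold and Cxcl9 33.2-fold, as ratios of group means. All 3 passed in limma (3 of 3), where 0.416% of tested genes were called higher. All 3 had groups that did not overlap, as did 8.13% of tested genes in the same direction. The median log2 change of the 3 was 5.89, against -0.0776 over all tested genes.

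Cxcl10 stood at 349.7, 139 and 486 scaled counts in untreated 5, 1 and 9. It stood at 29851, 28258 and 24438 in IFNg 6, 2 and 10. The IFNg libraries lay close together, and the lowest of them was 50.3 times the highest untreated library. Group values were 325 ± 175 and 27516 ± 2782 (SD, n = 3 each). The log2 change, on the log2(scaled count + 1) scale used throughout, was 6.57 ± 0.429 SE (limma adjusted p = 1.25e-04), the 11th of all tested genes.

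Cxcl11 was at 21.1, 8.60 and 18.5 in untreated 5, 1 and 9 and at 842, 748 and 1371 in IFNg 6, 2 and 10. IFNg 10 was the highest here, whereas it was the lowest for the other 2 genes. Group values were 16.1 ± 6.59 and 987 ± 336 (SD, n = 3 each), with a log2 change of 5.89 ± 0.439 SE (limma adjusted p = 3.02e-04).

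Cxcl9 was at 25.3, 5.16 and 37.1 in untreated 5, 1 and 9 and at 932, 744 and 563 in IFNg 6, 2 and 10. Its untreated libraries differed by 7.18 times from lowest to highest and rested on 24, 6 and 36 reads, all above the floor of 3. Group values were 22.5 ± 16.1 and 747 ± 184 (SD, n = 3 each), and the log2 change was 5.32 ± 0.638 SE (limma adjusted p = 0.00662). Among all tested genes the log2 changes of Cxcl11 and Cxcl9 ranked 18 and 21. In bulk RNA, a rise in every cell and a rise in a part of the cells cannot be told apart.

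**Figure D1:**
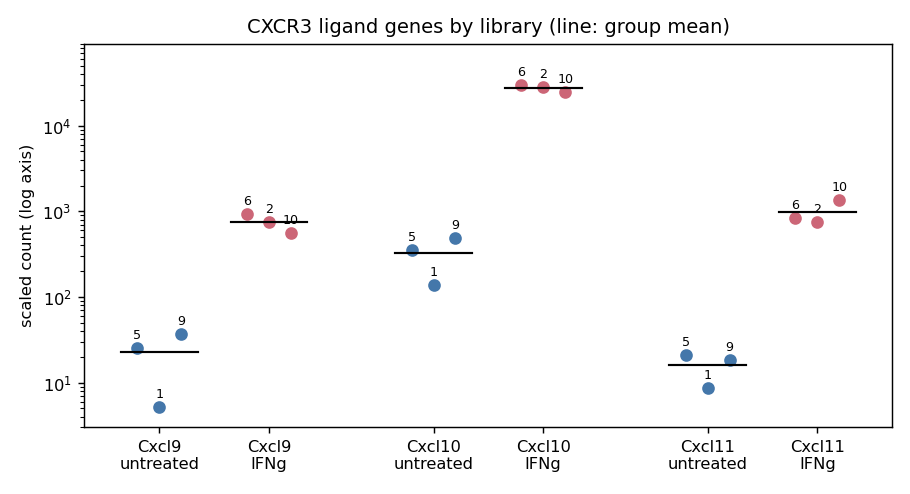
Scaled counts (log axis) of Cxcl9, Cxcl10 and Cxcl11 in each library, labelled by its end number, with untreated in blue, IFNg in red and a line at each group mean. For every gene the 3 IFNg libraries lie above the 3 untreated ones, and untreated 1 is the lowest of all.

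Untreated 1 was the lowest library for all 3 genes, at 5.16 to 139, and it is 1 of the 2 libraries with high Xist. IFNg 2, the other one, was not set apart: it was in the middle for Cxcl9 and Cxcl10 and lowest for Cxcl11. Without libraries 1 and 2 the log2 changes were 4.52 for Cxcl9, 6.03 for Cxcl10 and 5.70 for Cxcl11 (limma adjusted p = 0.0270, 0.00118 and 0.00561), an alternative chosen after seeing the data. The part of sex in the untreated values was not tested. Untreated 5 and IFNg 6, the GFP1 libraries, gave log2 changes of 5.15, 6.41 and 5.26 for Cxcl9, Cxcl10 and Cxcl11. The GFP3 libraries gave 5.40, 6.65 and 6.21. The difference between tags had limma adjusted p-values of 0.965, 0.949 and 0.739 in a fit added after seeing the data, with 1 GFP1 library per group.

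**Figure D2:**
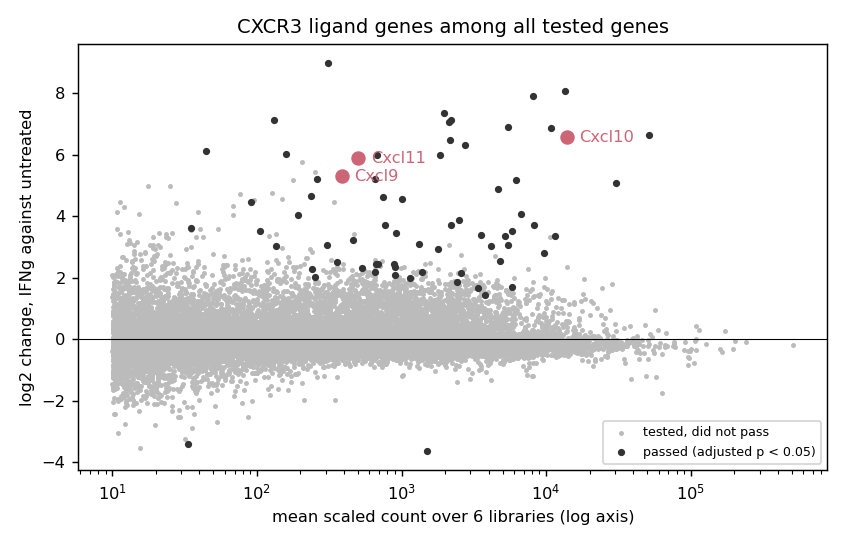
Mean scaled count over the 6 libraries (log x axis) against the log2 change after IFNg (y axis) for each tested gene, in grey where it did not pass and in black where it did, with the 3 ligand genes in red. Cxcl10, at a log2 change of 6.57, lies far to the right of Cxcl11 (5.89) and Cxcl9 (5.32).

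Levels were compared between the genes per kb of annotated exon. After IFNg, Cxcl10 was at 12218 ± 1235 scaled counts per kb, Cxcl11 at 260 ± 88.6 and Cxcl9 at 248 ± 61.2 (SD, n = 3). Among 23006 genes with a known exon length, Cxcl10 ranked 93 to 107 by this level in the IFNg libraries. In the untreated libraries it had ranked 5607 to 9274. Cxcl11 ranked 4459 to 6382 after IFNg and Cxcl9 4799 to 6647, so neither came near Cxcl10.

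The order of the lower 2 genes was not settled. Over all exons, Cxcl11 spanned 197 to 361 per kb and Cxcl9 187 to 309 after IFNg, which overlap. Over the coding transcripts alone (Cxcl9-201 with 2889 bases, Cxcl10-201 with 1094 and Cxcl11-201 with 1581) Cxcl11 spanned 473 to 867 and Cxcl9 195 to 323, which do not. Which transcripts were read is not given in a table of gene totals. In untreated cells Cxcl10 was at 144 ± 77.6 per kb of all exons, Cxcl9 at 7.46 ± 5.35 and Cxcl11 at 4.24 ± 1.74, and the lower 2 overlapped again. On the coding transcripts Cxcl10 made up 93.5% to 94.8% of the summed level of the 3 genes in untreated libraries and 95.5% to 97.3% in IFNg libraries.

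Levels of the 3 genes were also set against each other within each library. Cxcl10 had 13.8, 27.0 and 13.1 times the reads of Cxcl9 in untreated 5, 1 and 9, and 32.0, 38.0 and 43.4 times in IFNg 6, 2 and 10. The groups did not overlap. On the log2(scaled count + 1) scale the ratio was 3.98 ± 0.464 in untreated and 5.23 ± 0.219 in IFNg libraries (SD, n = 3 each), higher by 1.25. The size of that difference depended on the pseudocount: it was 1.14 on the reads with none, chosen after seeing the data, and 1.86 with 10. In an exact two-sided permutation test the difference of 1.25 gave p = 0.1, the smallest that 3 against 3 libraries allow, and 0.3 adjusted over the 3 ratios. It therefore could not pass a threshold of 0.05.

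On the same scale the log2 ratio of Cxcl11 to Cxcl9 was -0.25, 0.64 and -0.96 in untreated 5, 1 and 9 and -0.15, 0.0074 and 1.28 in IFNg 6, 2 and 10. These ranges overlapped (difference in log2 ratio 0.57, exact permutation p = 0.4, adjusted 0.4). The log2 ratio of Cxcl10 to Cxcl11 was 3.99, 3.87 and 4.64 in untreated 5, 1 and 9 and 5.15, 5.24 and 4.15 in IFNg 6, 2 and 10. IFNg 10 lay within the untreated range (difference 0.68, exact permutation p = 0.2, adjusted 0.3), and the difference was 0.59 on the reads with no pseudocount and 1.28 with 10.

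**Figure D3:**
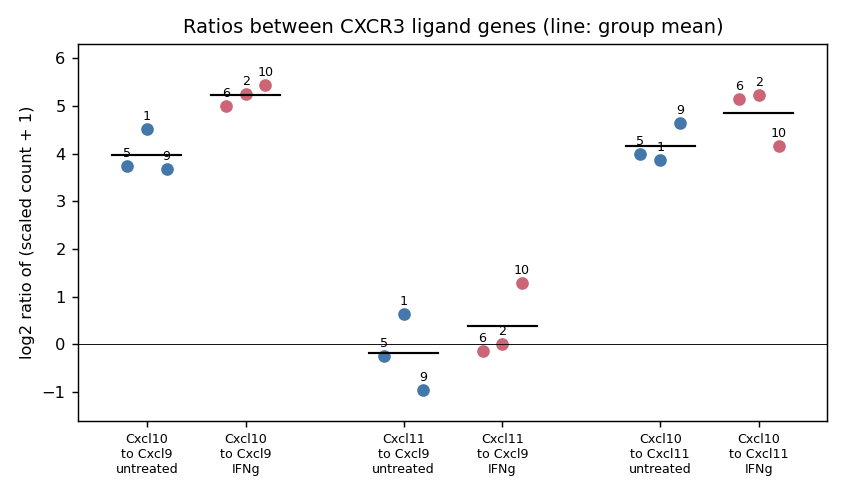
Log2 ratios of scaled count + 1 between pairs of the ligand genes within each library, labelled by end number, with untreated in blue, IFNg in red and a line at each group mean. The groups are apart for Cxcl10 to Cxcl9 and overlap for the other 2 ratios.

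Among the genes around the cluster, 0 passed. Of 20 other annotated genes whose start lies within 250 kb of a ligand gene's start, 12 were in the table and 9 were tested. In limma 0 of these 9 passed and 2 had an unadjusted p under 0.05. EdgeR gave 0 of 9, and DESeq2 0 of the 8 to which it gave an adjusted p. Over all tested genes 0.416% were higher in limma, 0.36% in edgeR and 2.84% in DESeq2. An unadjusted limma p under 0.05 was held by 9.22%. For so few genes, 0 that passed is close to the share over all genes. Sdad1, the nearest tested gene on the far side of Cxcl9, was at 3862 ± 937 and 3773 ± 167 (SD, n = 3 each). Nup54, a nuclear pore gene on the far side of Cxcl11, was at 2404 ± 422 and 2208 ± 239. Scarb2, a receptor of the lysosome membrane, was at 771 ± 235 and 1207 ± 68.0 (log2 0.69, limma adjusted p = 0.523).

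Art3, an ADP-ribosyltransferase family gene, runs on the plus strand across Cxcl10 and Cxcl11. Its values were 15.8, 0 and 3.09 in untreated 5, 1 and 9 and 60.6, 28.9 and 46.5 in IFNg 6, 2 and 10. The groups did not overlap, but the log2 change of 3.44 ± 1.02 SE did not pass (limma adjusted p = 0.309). It passed in the GFP3 libraries alone (limma adjusted p = 0.0339) and without untreated 5 (0.0438). In these settings 8.27% and 2.27% of all tested genes were called higher, against 0.416% in the main fit. Art3 exons share 133 bases with Cxcl10 exons. The library chemistry does not mark the strand, so reads of the 2 genes cannot be told apart there. The pseudogene Gm2673, on the plus strand, shares 1582 bases with the 3794 exon bases of Cxcl11 and was not analysed here, so the Cxcl11 value is uncertain in the same way.

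**Figure D4:**
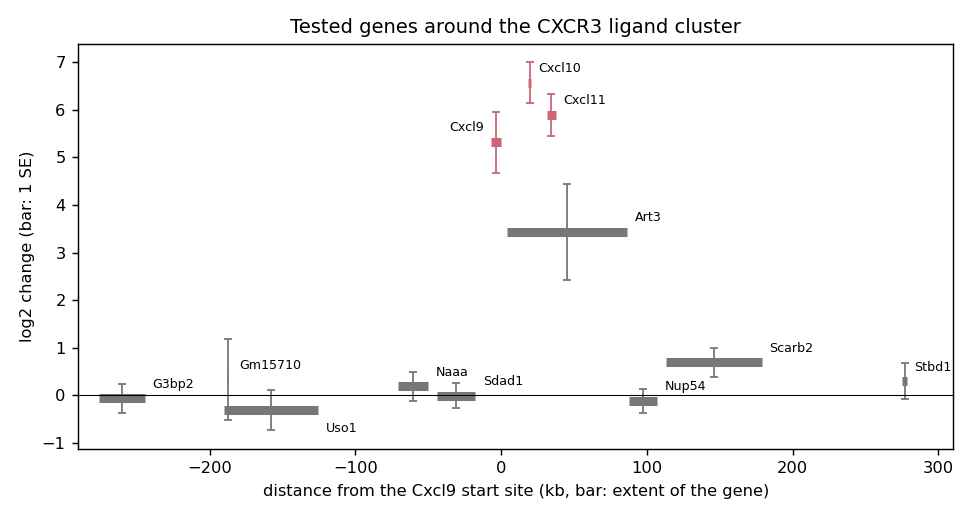
Log2 change after IFNg (y axis, thin bars 1 SE) of each tested gene by its distance in kb from the Cxcl9 start site (x axis, thick bars the extent of the gene), with the ligand genes in red. The 3 ligand genes lie at 5.32 to 6.57, Art3 at 3.44 and the others between -0.31 and 0.69.

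Other chemokine genes were measured in the same libraries. Of 33 listed CXC, CC, C and CX3C chemokines, 20 were in the table and 12 were tested, and 0 rose or fell in limma, with 1 at an unadjusted p under 0.05. EdgeR also gave 0, and DESeq2 gave 1. Over all tested genes 0.416% were called higher in limma, 0.36% in edgeR and 2.84% in DESeq2, and 9.22% had an unadjusted limma p under 0.05 in either direction, so 0 or 1 of 12 is close to the share over all genes. Their median log2 change was -0.12, beside -0.0776 over all tested genes. Cx3cl1, a membrane-bound chemokine, was the one with the low p. It was at 689, 2969 and 1955 in untreated 5, 1 and 9 and at 6364, 31937 and 20156 in IFNg 6, 2 and 10. The groups did not overlap, but the spread among the IFNg libraries was wide and the log2 change of 3.33 ± 0.664 SE missed the threshold (limma adjusted p = 0.117). It passed in DESeq2 (adjusted p = 1.29e-05), without IFNg 6 (limma adjusted p = 0.0392), with neighbouring end numbers as a paired block (5.09e-04) and with the title tag as a covariate (5.32e-04).

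The neutrophil attractant Cxcl1 was at 106 ± 90.4 and 128 ± 70.2 (SD, n = 3 each). Cxcl16, which binds CXCR6, was at 5654 ± 1729 and 4082 ± 1384. Ccl25, the small-intestinal ligand of CCR9, was at 8621 ± 1882 and 8288 ± 2979. Ccl6 was at 8631 ± 7057 and 5156 ± 2784, and Ccl28, an epithelial ligand of CCR10, at 4625 ± 1203 and 3241 ± 525. Cxcl12, a stromal chemokine, and Cxcl13, a B cell attractant, were low, at 20.5 ± 4.45 and 28.6 ± 12.9 for Cxcl12 and 16.6 ± 13.1 and 16.3 ± 6.48 for Cxcl13. For none of these 7 genes were the groups apart, and the limma adjusted p-values ran from 0.721 to 0.965.

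**Figure D5:**
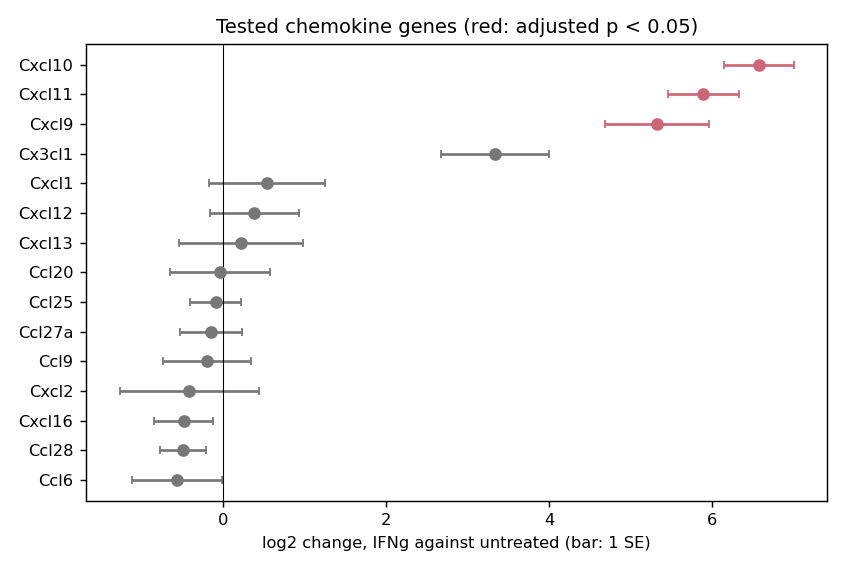
Log2 change after IFNg with 1 SE (bars) for the 15 tested chemokine genes, in red where the limma adjusted p was below 0.05. Cxcl10, Cxcl11 and Cxcl9 stand at 6.57, 5.89 and 5.32, Cx3cl1 at 3.33 and the other 11 between -0.57 and 0.54.

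Of the partners of the ligands, 0 of 4 tested passed in limma, 0 had an unadjusted p under 0.05, and 0 passed in edgeR or DESeq2. Over all tested genes 0.416% were higher in limma, 0.36% in edgeR and 2.84% in DESeq2. An unadjusted limma p under 0.05 was held by 9.22%, so 0 of 4 is close to the share over all genes. Dpp4, the surface peptidase that trims and inactivates CXCR3 ligands, was at 8411 ± 2486 and 7155 ± 401 (SD, n = 3 each). Sdc4 and Sdc1, heparan sulfate carriers to which these chemokines bind, were at 10927 ± 2796 and 16427 ± 4611 for Sdc4 and at 4428 ± 1807 and 6225 ± 3055 for Sdc1. Ackr3, the scavenging receptor of CXCL11, was at 39.8 ± 40.5 and 45.4 ± 6.74. Cxcr3 itself was not analysed here. Of 11 listed cytokines that can raise the ligands, the tested ones were Tnf, at 312 ± 242 and 239 ± 87.5, and Il18, at 116 ± 53.7 and 96.1 ± 56.5. Neither passed in limma, edgeR or DESeq2, and neither had an unadjusted p under 0.05.

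Of 17 listed genes of the IFNg signal, 6 rose and 0 fell in limma, where 0.416% of all tested genes were higher, and the median log2 change was 1.27. The transcription factor Irf1 stood at 1718, 1726 and 1876 in untreated 5, 1 and 9 and at 55019, 66943 and 56965 in IFNg 6, 2 and 10, a log2 change of 5.07 ± 0.230 SE (limma adjusted p = 2.33e-05). Irf8 and Irf9, factors of the same family, had log2 changes of 2.79 and 2.16 (limma adjusted p = 8.03e-04 and 0.00321). Irf9 did not pass without libraries 1 and 2 (0.161). The feedback inhibitors Socs1 and Socs3 had log2 changes of 7.34 and 3.70 (limma adjusted p = 0.00124 and 0.00140). Stat2, a partner of Irf9, had one of 3.11 (0.0333), which was lost with the block (0.0691), in edgeR (0.0556), without libraries 1 and 2 (0.0675), without untreated 9 (0.123) and without IFNg 6 (0.0653), 2 (0.128) or 10 (0.122).

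Stat3 and Ifngr1, a chain of the IFNg receptor, had log2 changes of 1.47 and -0.71 with groups that did not overlap, and neither passed in limma (adjusted p = 0.296 and 0.561). Stat3 passed in DESeq2 and in the GFP3 libraries alone, where 2.84% and 8.27% of all tested genes were called higher. Jak1 was at 11417 ± 3652 and 14920 ± 3499 and the phosphatase Ptpn2 at 3406 ± 277 and 3452 ± 955.

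Of 14 listed NF-kB genes 0 passed in limma, 0 in edgeR and 4 in DESeq2 (2.84% over all genes), and 5 had an unadjusted limma p under 0.05 (9.22% over all genes). The inhibitor Nfkbia, itself a quick NF-kB target, was at 4272, 3396 and 5931 in untreated 5, 1 and 9 and at 12175, 9960 and 7929 in IFNg 6, 2 and 10. Its groups did not overlap (log2 1.16 ± 0.296 SE, limma adjusted p = 0.286), and it passed in DESeq2. The subunits Nfkb2 and Rela and the kinase Ikbkb had log2 changes of 0.72, 0.16 and -0.38, with groups that overlapped. Bcl3, Nfkbiz and Relb, singled out after their values were seen, had log2 changes of 2.54, 1.56 and 1.45 with groups that did not overlap. None of these passed in limma (adjusted p = 0.271, 0.185 and 0.294), and all passed in DESeq2 (7.21e-04, 0.00371 and 0.0408) and in the GFP3 libraries alone. The count of NF-kB genes that rose was 5 in the GFP3 libraries alone and 2 without untreated 5. In these settings more of all genes were called higher too, at 8.27% and 2.27%, against 0.416% in the main fit.

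Beyond the ligands themselves, likeness was measured as the root mean square difference, over the 6 libraries, of log2 values after subtracting each gene's untreated mean. The genes nearest to Cxcl10 were Irgm1 (0.512), Gm12250 (0.542) and Apol10b (0.559). Those nearest to Cxcl11 were Apol10b (0.537), Ido1 (0.582) and Irgm1 (0.700). Those nearest to Cxcl9 were Ido1 (0.806), Hsf2bp (0.825) and Irf1 (0.831). Hsf2bp did not pass in limma (adjusted p = 0.0671), at 16.6 ± 14.4 in untreated and 280 ± 76.4 in IFNg libraries (SD, n = 3 each). Irgm1 and Gm12250 encode interferon-inducible GTPases of a family with similar copies, so their values are uncertain, and Ido1 an enzyme that degrades tryptophan. Among themselves the ligands differed by 0.639 (Cxcl10 and Cxcl11), 0.764 (Cxcl9 and Cxcl11) and 0.934 (Cxcl9 and Cxcl10). By this measure alone, Cxcl9 and Cxcl10 were less like each other than either was to its nearest other genes. Their log2 changes were unequal, at 5.32 and 6.57, but their libraries stood in the same order within each group. A step that 2 genes share cancels in this measure, which leaves the difference between their steps and the scatter of libraries within groups. Cxcl9 and Irf1, for example, had log2 changes of 5.32 and 5.07, so little of their 0.831 came from the step. The measure has no test. Apol10b was at 0.343 ± 0.595 in untreated and 88.8 ± 20.2 in IFNg libraries (SD, n = 3 each), so it reached the mean of 10 only through the IFNg group, and its step, and with it its likeness, is set by the pseudocount.

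Markers of leukocytes, stroma and endothelium, among which are cells known as strong sources of CXCR3 ligands, ranged from 0 to 1145 scaled counts. Of 15 myeloid markers 10 were in the table and 7 tested, and 0 passed in limma, edgeR or DESeq2, with 0 at an unadjusted p under 0.05. Over all tested genes 0.416% were higher in limma, 0.36% in edgeR and 2.84% in DESeq2. An unadjusted limma p under 0.05 was held by 9.22%. For lists this small, here and below, 0 is close to the share over all genes. Over the 6 libraries Cd14 spanned 774 to 1145, Mrc1 123 to 623, Cd68 117 to 218 and Itgam 104 to 172. Csf1r, a macrophage receptor, spanned 0.860 to 36.9 in untreated and 2.89 to 9.65 in IFNg libraries, Lyz2 10.3 to 30.9 and 2.56 to 11.4, and Itgax, a dendritic cell integrin, 0 to 3.16 and 0 to 3.51. The summed myeloid level was 1333 to 1993 in untreated and 1472 to 1791 in IFNg libraries. Of 15 T, B and natural killer cell markers 11 were in the table and 3 tested, again with 0 at any of these, and their sum was 106 to 146 and 135 to 183. Ptprc, the pan-leukocyte gene CD45, spanned 20.6 to 33.7 and 11.1 to 41.2, and Cd3e 0 to 6.18 and 0 to 10.6. The B cell marker Ms4a1 spanned 19.6 to 27.4 and 34.7 to 71.6 (log2 1.02, limma adjusted p = 0.579). Its groups did not overlap, as for 8.13% of tested genes in that direction. Those of Cd79a, also a B cell marker, overlapped, at 40.4 to 59.0 and 30.9 to 75.5. Of 10 stromal and endothelial markers 9 were in the table and 5 tested. In limma 0 of these 5 passed and 0 had an unadjusted p under 0.05. The summed stromal and endothelial level was 84.3 to 595 in untreated and 125 to 338 in IFNg libraries. The part of any of these cells in the ligand values was not tested.

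The cells' own markers differed widely in level. Of 10 listed stem cell markers 0 passed in limma (0.416% of tested genes were higher). Smoc2 and Ascl2 had an unadjusted limma p under 0.05 (9.22% over all genes). Smoc2 was at 9741 ± 4113 in untreated and 21417 ± 8213 in IFNg libraries (SD, n = 3 each). Ascl2 was lower, at 358 ± 297 and 686 ± 158, as was Axin2, at 424 ± 11.9 and 419 ± 116. Olfm4, a marker of crypt base stem cells, was at 219689 to 266604 in untreated and 225396 to 240556 in IFNg libraries, and Lgr5 at 2801 to 8499 and 2484 to 5310. Paneth cell markers, from the granule cells beside the stem cells, were present in every library, with a sum of 117700 to 367540 in untreated and 34303 to 205600 in IFNg libraries. Of 9 such markers 0 passed in limma, edgeR or DESeq2, 0 had an unadjusted p under 0.05, and 8 lay below 0 on the log2 scale (median -0.97). Over all tested genes 0.416% were higher in limma, 0.36% in edgeR and 2.84% in DESeq2, so 0 of 9 is close to that share. The median log2 change over all tested genes was -0.0776. Of 12 handling stress genes 0 passed in limma and edgeR, 3 passed in DESeq2 (2.84% over all genes) and 3 had an unadjusted p under 0.05 in limma (9.22% over all genes), with 11 log2 changes above 0, a median of 0.48 and a sum of 104890 to 117990 in untreated and 130160 to 225170 in IFNg libraries. The part of Paneth cells or of handling in the ligand values was not tested.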

How the data were processed

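The deposited table holds scaled counts, a signal the authors made by dividing each library's reads by a single factor, as its name tells. Cutadapt 1.6, HTSeq 0.5.3, STAR 2.5.0a, DESeq 1.22.1 and mm10 are named per the submitters' processing notes, without roles. Which annotation and strand setting were used is not given in the sources. Per the labels' protocols, 2 ng of RNA went into a full-length cDNA kit. It carries no molecular identifiers, so floors cover counting error only. The 4 rows that name no gene held 40.3% to 52.5% of all values and were left out. Dividing by the smallest step of a library gave whole reads for 100% of 138762 values, within 0.01 read.

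Groups were compared with limma 3.58.1 (R 4.3.3) on log2(scaled count + 1), two-sided, with a trended, robust prior and genes at a mean of 10 or more. The threshold was 0.05 after Benjamini-Hochberg adjustment over all tested genes. The fit was tested on simulated data. Alternatives were TMM scaling, pseudocounts of 0.5 and 10, other filters, edgeR 4.0.16 and DESeq2 1.42.0 on recovered reads, a block of neighbouring end numbers (5 with 6, 1 with 2, 9 with 10, a pairing that the labels do not state), the title tag as a covariate, the GFP3 libraries alone and leaving libraries out.

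The members and lists were chosen with earlier results of these data known. Named genes were the 3 members, list genes that passed, up to 4 others of each list by mean level, the 3 nearest genes to each member and neighbours within 250 kb. Exon lengths and coordinates are from GENCODE M21, matched by gene ID without its version for 23006 of 23127 genes. Its models may differ from those the authors counted on, since 16901 IDs matched with the version.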

Additional observations from a re-analysis of the deposited data

How the results depend on the processing

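Cxcl9, Cxcl10 and Cxcl11 kept their direction and passed under all 17 alternatives, with log2 changes of 4.52 to 5.85, 6.03 to 6.95 and 5.24 to 6.21 and highest adjusted p-values of 0.0491, 0.00415 and 0.00561. For Cxcl9 the highest p came from the paired block. The differences in log2 ratio kept their sign under all 11 alternatives run for them, at 1.10 to 1.86 for Cxcl10 to Cxcl9, 0.122 to 1.18 for Cxcl11 to Cxcl9 and 0.335 to 1.28 for Cxcl10 to Cxcl11, and none of these designs could reach 0.05. The other chemokines that rose went from 0 to 1, each time Cx3cl1, in DESeq2, with the block, with the tag, in the GFP3 libraries alone and without IFNg 6, so that leaving out each library gave 0 to 1. The NF-kB genes that rose went from 0 to 4 in DESeq2 and 5 in the GFP3 libraries, and leaving out each library gave 0 to 2. IFNg signal genes stayed between 4 and 9. The count of all higher genes was 457 in DESeq2, 108 with the tag, 1337 in the GFP3 libraries, 34 without libraries 1 and 2, and 41 (IFNg 2 left out), 43 (IFNg 10) or 366 (untreated 5) with one library fewer, against 67, and that of lower genes ran from 1 to 11 against 2. The cause was not tested. The 6 to 36 reads of Cxcl9 and 10 to 20 of Cxcl11 per untreated library limit the precision of their folds, which ran from 23.9 to 49.1 and from 49.5 to 72.7 as each library was left out.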
